A study of Mus musculus with 28 samples.

Results

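The galectin genes *Lgals1*, *Lgals3*, *Lgals8* and *Lgals9* and the galectin-binding gene *Lgals3bp* were described in sequenced hippocampal microglia of 28 mice. The members were the 5 rows of the count table that carry these gene symbols, out of 48587 genes, and all 5 passed the filter on low counts, as 15298 genes did in all. Each library came from the FACS-sorted CD11b+CD45low cells of 1 male mouse on a C57BL/6J background, aged 16 weeks, and the sort excluded lineages with antibodies that included anti-Ly6C and anti-Ly6G, markers of monocytes and neutrophils. Mice were either wild type (WT) or heterozygous 5xFAD, a model of Alzheimer's disease that carries mutant human transgenes, APP among them. The Thy-1 promoter drives the transgenes in neurons, so the sorted cells themselves are not the intended site of their expression. Specific pathogen free (SPF) mice, germ-free (GF) mice and SPF mice given a mixture of antibiotics (vancomycin, cefoxitin, gentamicin and metronidazol) in drinking water for 8 weeks (ABX) were compared. There were 5 SPF, 4 GF and 5 ABX mice among the WT, and 3 SPF, 5 GF and 6 ABX mice among the 5xFAD, each mouse a separate replicate. A single mouse carries its library title as a name. FAD_GF_201 is a GF 5xFAD mouse by title and genotype label, although its description names a WT mouse.

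Galectins are lectins that bind beta-galactoside sugars on glycoproteins and glycolipids. They are made without a signal peptide, act in the cytosol and nucleus, and leave the cell by an unconventional route to cross-link receptors on cell surfaces. Galectin-1 (*Lgals1*) is a small prototype galectin, galectin-3 (*Lgals3*) is the chimera type with a collagen-like tail, and galectin-8 (*Lgals8*) and galectin-9 (*Lgals9*) hold a pair of carbohydrate recognition domains in tandem. *Lgals3bp* is no galectin itself and encodes a secreted, heavily glycosylated ligand of galectin-3. Galectin-3 is known as a marker of activated microglia near plaques, galectin-8 as a sensor of damaged vesicles that recruits autophagy receptors, and galectin-9 as a ligand of the inhibitory receptor TIM-3.

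All 5 genes lie on autosomes (GRCm38, GENCODE M21). *Lgals1* is at chr15:78926725-78930465 on the plus strand, *Lgals3* at chr14:47367751-47386160 on the plus strand and *Lgals8* at chr13:12439415-12464944 on the minus strand. *Lgals9* at chr11:78962974-78984946 and *Lgals3bp* at chr11:118392751-118402092 share chromosome 11 and the minus strand. Only *Lgals8* shares exon bases with another gene: 155 bases, 4.2% of its exons, are also exon of *Heatr1* on the opposite strand, and the libraries did not mark strand. Promoter sequences of RefSeq (GRCm38.p6) matched 4 of the 5 symbols, all except *Lgals1*. The 250 bases before the start site are shown for *Lgals9* and *Lgals3bp*, the only members found there with a match to the motifs searched. Capitals mark matches, on either strand, to AANNGAAA, the core that interferon regulatory factors bind, and to GAAANNGAAA, the interferon-stimulated response element with a pair of GAAA repeats, which holds the shorter motif within it.
*Lgals9* promoter, chr11:78984925-78985174, minus strand: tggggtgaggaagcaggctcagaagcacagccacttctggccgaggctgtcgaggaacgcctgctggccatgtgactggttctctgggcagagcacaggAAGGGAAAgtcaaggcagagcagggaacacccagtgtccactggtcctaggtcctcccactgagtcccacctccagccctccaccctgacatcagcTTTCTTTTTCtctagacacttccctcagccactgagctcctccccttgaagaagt
*Lgals3bp* promoter, chr11:118401960-118402209, minus strand: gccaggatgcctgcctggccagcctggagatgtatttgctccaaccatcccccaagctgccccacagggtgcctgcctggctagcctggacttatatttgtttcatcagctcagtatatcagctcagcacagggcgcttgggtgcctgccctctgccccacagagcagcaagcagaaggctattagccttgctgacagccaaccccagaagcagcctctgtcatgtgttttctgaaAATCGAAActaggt
The longer motif occurred in 3.44% of 32851 promoter windows of 300 bases (250 before and 50 after the start), and among the 4 members found there only in *Lgals9*. It matched that promoter at bases -55 to -46 and again at bases 15 to 24 after the start, where the sequence reads TTTCTGTTTC. The shorter core occurred in 23.9% of the windows. Outside the longer motif *Lgals9* held 1 such match, at bases -151 to -144, *Lgals3bp* held 1, at bases -14 to -7, and *Lgals3* and *Lgals8* held none. Matches to TGANTCA (AP-1, in 7.81% of windows), CACGTG (E-box, 7.15%) and GGGANTTTCC (NF-kappaB, 0.411%) were found in none of the 4.

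The libraries held 14441610 to 29977395 counted reads, and no pair of replicates agreed within counting noise (chi-square of at least 6.92 per degree of freedom). The 7 microglia markers summed to between 28962 and 47183 CPM (reads of a gene scaled to a common library total), and none of them was at 0 in any library. Their sum was lower in 5xFAD mice (28962 to 38514 CPM) than in WT mice (40284 to 47183 CPM). Markers of other cells were uneven. The 6 border-associated macrophage markers summed to 3.48 to 8.09 CPM in SPF WT and 3.74 to 5.90 CPM in ABX WT mice, with between 2 and 5 of them at 0. In GF WT mice they summed to 10.7 to 41.9 CPM. Among 5xFAD mice they summed to 15.3 to 28.3 CPM (SPF), 9.43 to 77.0 CPM (GF) and 32.8 to 242 CPM (ABX), again with at most 1 at 0. The 6 monocyte markers summed to 4.49 to 19.8 CPM in WT and 11.0 to 64.9 CPM in 5xFAD mice. The 6 neutrophil markers summed to 61.1 to 263 CPM in the SPF 5xFAD mice and 144 CPM in FAD_ABX_1151, and to at most 0.294 CPM elsewhere. The names of the table's columns have 3 forms. The first is that of WT mice raised SPF or given antibiotics. The second is that of the SPF 5xFAD mice and FAD_ABX_1151, and the third that of every GF mouse, WT or 5xFAD, and of 5 ABX 5xFAD mice. The labels do not say whether these forms mark runs, and the GF mice came from another facility, so form, facility and GF housing cannot be told apart when GF and SPF mice are compared. Form and genotype cannot be told apart among SPF mice (WT of the first form, 5xFAD of the second) or ABX mice (WT of the first form, 5xFAD of the third except FAD_ABX_1151), and only the genotypes of GF mice share a form. In bulk RNA of sorted cells, fewer cells of a type and less RNA per cell cannot be told apart either. *App* reached 249.8 to 297 CPM in SPF 5xFAD and 202 to 236 CPM in SPF WT mice, whereas in GF mice the ranges for 5xFAD and WT overlapped, so it does not tell the genotype of FAD_GF_201. *Lgals3bp* lay at 609 CPM in that mouse, above every WT mouse.

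Levels are given as CPM on TMM-scaled library sizes, and between genes as CPM per kb of summed exon length, for which the table gives 800 bases for *Lgals1* where GENCODE M21 gives 903. By the mean over 28 mice, *Lgals9* was highest per length (206 CPM per kb), followed by *Lgals3bp* (165), *Lgals8* (39.1), *Lgals1* (6.81) and *Lgals3* (5.93). *Lgals9* and *Lgals3bp* exchanged places with genotype. In WT mice *Lgals9* lay at 154.5 to 240.5 CPM per kb and *Lgals3bp* at 42.3 to 67.6 CPM per kb, so the genes did not overlap. In 5xFAD mice the group means of *Lgals3bp* were 288, 329 and 229.98 CPM per kb (SPF, GF, ABX) and those of *Lgals9* 179.98, 244 and 216 CPM per kb. The ranges of this pair were apart in SPF 5xFAD mice (283 to 297 against 169 to 195 CPM per kb) and overlapped in GF and ABX 5xFAD mice. *Lgals3bp* and *Lgals8* overlapped in GF WT and ABX WT mice and were apart, by little, in SPF WT mice. *Lgals1* and *Lgals3* were the lowest pair throughout and overlapped in every group except SPF 5xFAD, in which *Lgals3* (5.90 to 10.6 CPM per kb) exceeded *Lgals1* (3.01 to 4.97 CPM per kb). *Lgals1* rested on 29 to 353 reads per library and *Lgals3* on 43 to 832 reads, which gives counting errors of up to 18.6% and 15.2%, whereas the other 3 genes had at least 1877 reads and a counting error of at most 2.31%. A test over all 6 groups at once passed for each of the 5 genes, with adjusted p-values of 2.77e-16 for *Lgals3bp*, 3.1e-06 for *Lgals1*, 4.31e-05 for *Lgals3*, 0.0127 for *Lgals8* and 0.0391 for *Lgals9* (edgeR quasi-likelihood F test, Benjamini-Hochberg adjustment over 15298 genes).

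**Figure D1:**
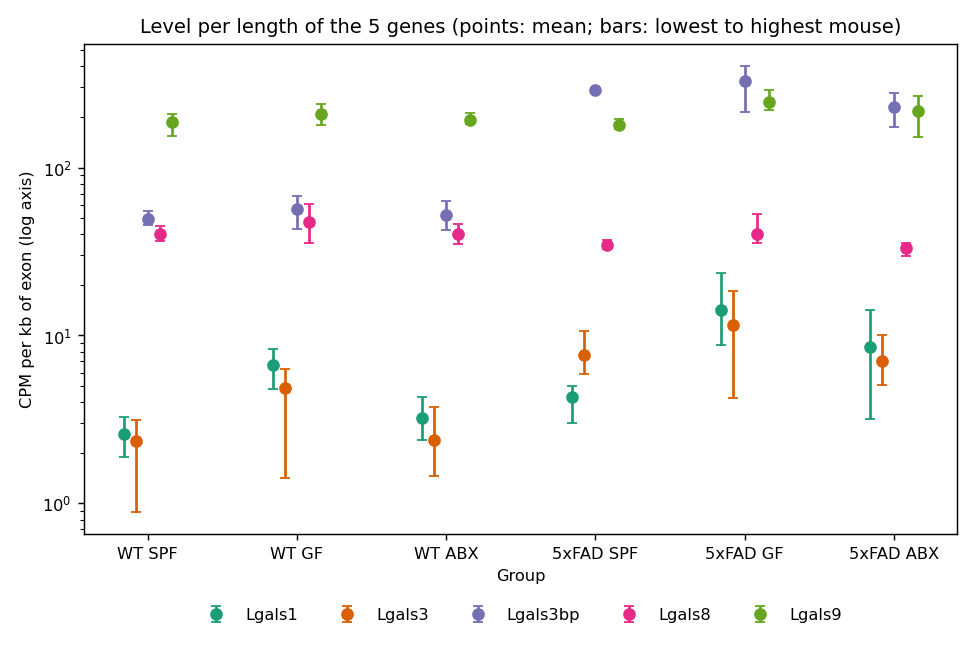
Mean level per length (CPM per kb of exon, log axis) of the 5 genes in the 6 groups, with bars from the lowest to the highest mouse. *Lgals3bp* lies near *Lgals8* in WT mice (group means 49.6 to 56.3 CPM per kb) and near or above *Lgals9* in 5xFAD mice (229.98 to 329 CPM per kb).

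First, microglia of 5xFAD mice were compared with those of WT mice of the same condition. *Lgals3bp* rose by 4.403- to 5.85-fold and *Lgals3* by 2.38- to 3.24-fold in all 3 conditions, and *Lgals1* rose in GF and ABX mice, whereas neither *Lgals8* nor *Lgals9* passed the test in any single condition. Thus 2 of 5 members were called in SPF mice, where 4.57% of all genes tested were called at an adjusted p-value under 0.05 (edgeR). These were 699 genes, against 2154 with voomWithQualityWeights, which also called 2 members, and 1340 of 13796 with only the groups compared. In GF mice 3 of 5 were called, against 15.6% of all genes, and in ABX mice 3 of 5, against 14.4%. The median log2 fold change of the members was 0.73 (SPF), 1.08 (GF) and 1.40 (ABX), beside medians of -0.027, -0.025 and -0.013 over all genes. Cell type markers moved in each of these comparisons, and their part in the members' differences was not tested. In SPF mice 4 of 6 border macrophage, 5 of 5 neutrophil, 1 of 5 monocyte and 1 of 2 endothelial markers tested were called higher and 2 of 7 microglia markers lower. In GF mice 2 of 5 monocyte and 2 of 4 astrocyte markers were called higher, and 4 of 7 microglia, 1 of 4 astrocyte and 1 of 2 endothelial markers lower. In ABX mice 6 of 6 border macrophage, 5 of 5 neutrophil, 3 of 5 monocyte and 1 of 2 endothelial markers were called higher, and 3 of 7 microglia, 1 of 5 monocyte and 1 of 2 endothelial markers lower. The neutrophil markers of ABX mice came almost wholly from FAD_ABX_1151 (144 CPM, against at most 0.285 CPM in any other ABX mouse).

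**Figure D2:**
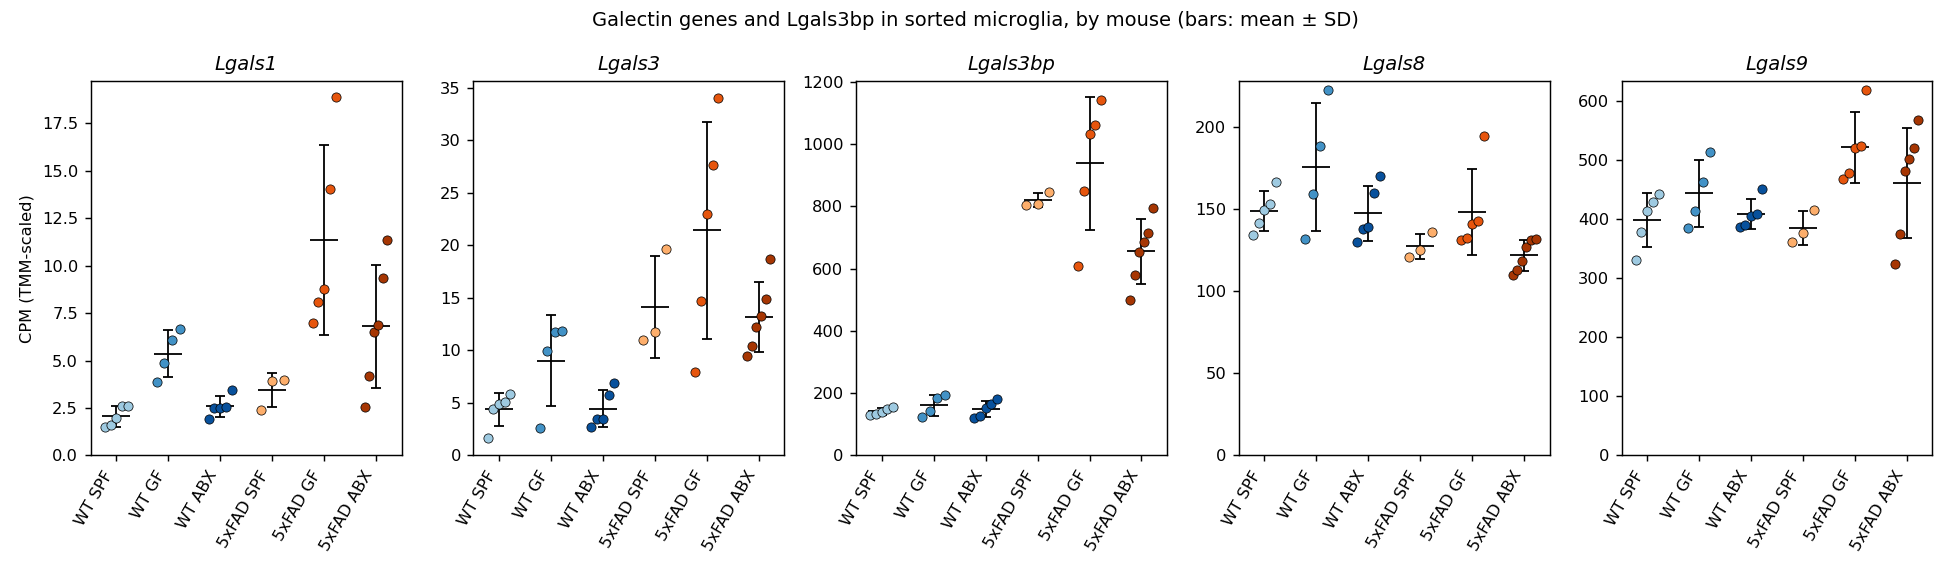
CPM on TMM-scaled library sizes of each gene in each of the 28 mice (points) with the mean and SD of each group (bars). For *Lgals3bp* all 14 5xFAD mice lie between 499 and 1141 CPM, above all 14 WT mice at 120.4 to 192 CPM.

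*Lgals3bp*, the secreted galectin ligand, separated the genotypes in every condition. From lowest to highest mouse it lay at 129, 132, 141, 148 and 157 CPM in SPF WT mice and at 805, 808 and 845 CPM in SPF 5xFAD mice. In GF mice it lay at 122, 141, 185.2 and 192 CPM in WT and at 609, 849, 1031, 1059 and 1141 CPM in 5xFAD mice. In ABX mice it lay at 120.4, 126, 153, 164 and 180.5 CPM in WT and at 499, 579, 654, 687, 715 and 796 CPM in 5xFAD mice. No 5xFAD mouse came near the WT range, and among the 5xFAD groups the SPF mice lay closest together (819 ± 22.6 CPM, SD, n = 3). Relative to WT mice the log2 fold change was 2.53 ± 0.17 (SE) in SPF mice, or 5.79-fold with an adjusted p-value of 3.3e-12. It was 2.55 ± 0.17 in GF mice (5.85-fold, adjusted p = 4.7e-12) and 2.14 ± 0.15 in ABX mice (4.403-fold, adjusted p = 9.9e-12). By p-value *Lgals3bp* ranked 10, 8 and 14 among the 15298 genes (edgeR). The 3 increases could not be told apart: the largest difference between conditions, ABX against GF, was -0.41 on the log2 scale with a 95% confidence interval from -0.83 to 0.02 and an adjusted p of 0.335 for the interaction (edgeR). In the GF comparison, whose libraries share 1 form of column names, the border macrophage markers overlapped between genotypes (10.7 to 41.9 CPM in WT and 9.43 to 77.0 CPM in 5xFAD mice) and 0 of 6 were called, whereas monocyte, astrocyte and microglia markers moved as given above. In the SPF and ABX comparisons the border macrophage markers summed higher in every 5xFAD mouse, and their part in the rise of *Lgals3bp* there was not tested.

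*Lgals3*, the chimera galectin, was low and variable. It lay at 1.65, 4.397, 4.92, 5.06 and 5.82 CPM in SPF WT mice and at 11.0, 11.7 and 19.7 CPM in SPF 5xFAD mice. In GF mice it lay at 2.64, 9.92, 11.7 and 11.8 CPM in WT and at 7.90, 14.7, 23.0, 27.6 and 33.998 CPM in 5xFAD mice. In ABX mice it lay at 2.71, 3.44, 3.46, 5.77 and 6.93 CPM in WT and at 9.46, 10.4, 12.2, 13.3, 14.9 and 18.7 CPM in 5xFAD mice. Genotypes were apart in SPF and ABX mice, whereas in GF mice FAD_GF_182 fell within the WT range and WT_GF_199 stood below the other GF WT mice. The log2 fold change was 1.69 ± 0.42 (SE) in SPF mice (3.24-fold, adjusted p = 0.0115), 1.25 ± 0.40 in GF mice (2.38-fold, adjusted p = 0.0286) and 1.56 ± 0.37 in ABX mice (2.96-fold, adjusted p = 0.00376, edgeR). The SPF call rested on FAD_SPF_1144, without which the value was 1.39 with an adjusted p of 0.140 (edgeR). This mouse had the highest sum of neutrophil markers (263 CPM, against 61.1 and 189.5 CPM in the other SPF 5xFAD mice), and all 5 neutrophil markers tested and 4 of 6 border macrophage markers were called higher in the same comparison. In ABX mice all 6 border macrophage and 3 of 5 monocyte markers were called higher, and in GF mice 0 of 6 and 2 of 5, with 4 of 7 microglia markers lower. The part of all these markers in the differences of *Lgals3* was not tested. The GF call was lost with limma's voomWithQualityWeights (1.03, adjusted p = 0.0700), with only the GF groups in the fit (adjusted p = 0.0836) and without FAD_GF_184, FAD_GF_185, WT_GF_199 or WT_GF_231 (adjusted p of edgeR between 0.0537 and 0.113).

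*Lgals1*, the prototype galectin, rose in 5xFAD mice under GF and ABX conditions. It lay at 1.51, 1.59, 1.96, 2.61 and 2.63 CPM in SPF WT mice and at 2.41, 3.91 and 3.98 CPM in SPF 5xFAD mice, so the genotypes overlapped. In GF mice it lay at 3.85, 4.88, 6.08 and 6.63 CPM in WT and at 6.99, 8.11, 8.77, 14.0 and 18.9 CPM in 5xFAD mice, with no overlap. In ABX mice it lay at 1.92, 2.497, 2.497, 2.54 and 3.44 CPM in WT and at 2.54, 4.16, 6.52, 6.86, 9.37 and 11.3 CPM in 5xFAD mice, and 1 mouse, FAD_ABX_1151, fell within the WT range. The log2 fold change was 0.73 ± 0.37 (SE) in SPF mice (adjusted p = 0.379), 1.08 ± 0.34 in GF mice (2.12-fold, adjusted p = 0.0284) and 1.40 ± 0.32 in ABX mice (2.63-fold, adjusted p = 0.00274, edgeR). The size of the increase was not shown to differ between conditions, since the interactions ran from 0.31 to 0.66 on the log2 scale with adjusted p-values of at least 0.806. The GF call was lost without FAD_GF_181, FAD_GF_184, WT_GF_199 or WT_GF_230 (adjusted p between 0.0605 and 0.109, edgeR). Without FAD_ABX_1151 and FAD_ABX_1482 the ABX value was 1.38 (adjusted p = 0.0015, edgeR). Of the 6 border macrophage markers, 6 were called higher in the ABX comparison, in which *Lgals1* rose, 4 in the SPF comparison, in which it was not called, and 0 in the GF comparison, in which it rose. Monocyte markers were called higher in both comparisons in which *Lgals1* rose (2 of 5 in GF and 3 of 5 in ABX mice), and microglia markers lower (4 of 7 and 3 of 7). The median sum of the border macrophage markers was highest in ABX 5xFAD mice (145 CPM), whereas *Lgals1* had its highest mean in GF 5xFAD mice (11.3 CPM). In single mice the order of the border macrophage markers and of *Lgals1* was shared in part. Apart from FAD_GF_201, the GF 5xFAD mice had the same order on both scales. What these and the other markers contribute to the rise of *Lgals1* was not tested. FAD_GF_182 had 9.43 CPM of the border macrophage markers and 6.99 CPM of *Lgals1*, the lowest of its group on both scales. FAD_ABX_1151, with 32.8 CPM of these markers and 2.54 CPM of *Lgals1*, was likewise lowest of its group on both. FAD_ABX_1482, highest of its group in *Lgals1* (11.3 CPM), had a lower sum of these markers (108 CPM) than 3 others of the group. FAD_GF_201, highest of its group in these markers (77.0 CPM), had 8.77 CPM of *Lgals1*. The monocyte markers summed to 38.3 CPM in FAD_GF_182, the highest of its group, and to 18.3 CPM in FAD_ABX_1151, the lowest of its group.

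**Figure D3:**
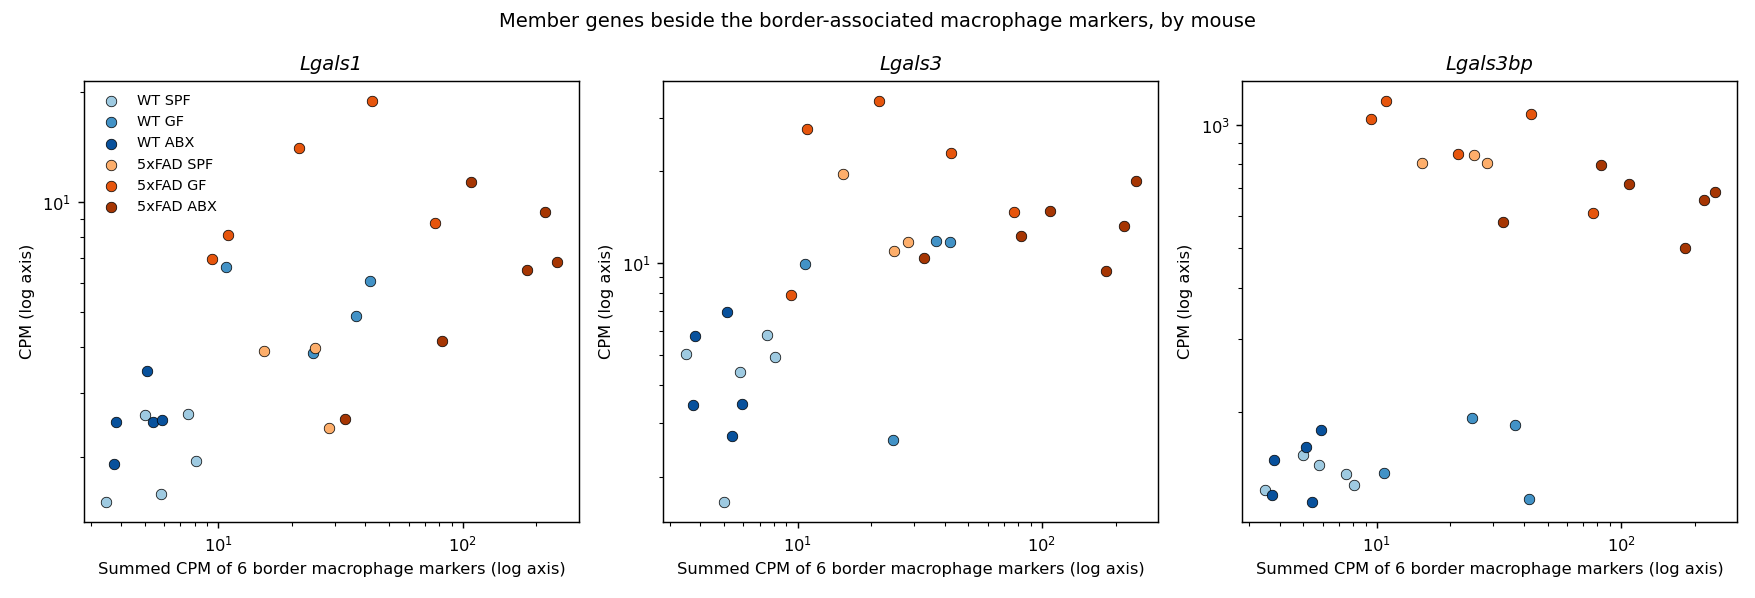
CPM of *Lgals1*, *Lgals3* and *Lgals3bp* (TMM-scaled, log axis) against the summed CPM of the 6 border-associated macrophage markers (library totals, log axis), 1 point per mouse. The SPF WT and ABX WT mice (3.48 to 8.09 CPM of the markers) lie at the low end for all 3 genes, and the GF WT mice (10.7 to 41.9 CPM of the markers) lie at 122 to 192 CPM of *Lgals3bp*, below every 5xFAD mouse, with 2 of the 4 above all other WT mice.

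*Lgals8*, the sensor of damaged vesicles, was lower in 5xFAD mice by a small amount. It lay at 134, 142, 149.8, 153 and 166 CPM in SPF WT mice and at 120.9, 125 and 136 CPM in SPF 5xFAD mice. In GF mice it lay at 132, 159, 189 and 222 CPM in WT and at 131.5, 132, 141, 143 and 195 CPM in 5xFAD mice. In ABX mice it lay at 130.1, 138, 139, 160.0 and 170.1 CPM in WT and at 109.9, 113, 118, 127, 131 and 132 CPM in 5xFAD mice. The genotypes overlapped in all 3 conditions, by 1 WT mouse each in SPF and ABX mice. The log2 fold change was -0.23 ± 0.14 (SE) in SPF mice (adjusted p = 0.508), -0.24 ± 0.12 in GF mice (adjusted p = 0.197) and -0.27 ± 0.11 in ABX mice (adjusted p = 0.0990, edgeR). The mean of the 3 differences, a contrast chosen after the values were seen, was -0.25 ± 0.07, a 0.842-fold level with a 95% confidence interval from 0.761 to 0.931 and an adjusted p of 0.00994 (edgeR). It was called under the 7 other settings and without any single mouse (adjusted p of up to 0.0281). In the same contrast 4 of 7 microglia markers were called lower (median over the list -0.33), 6 of 6 border macrophage and 3 of 5 monocyte markers higher and 1 of 5 monocyte markers lower, and their part was not tested. Of the members 4 of 5 were called, beside 25.1% of all genes, and *Lgals9* was the member that was not (0.12 ± 0.07, adjusted p = 0.241). With library size alone in place of TMM, *Lgals8* passed in GF mice (-0.37, adjusted p = 0.0362) and ABX mice (-0.35, adjusted p = 0.0311), a scaling that also shifted the median over all genes of the GF comparison from -0.025 to -0.15 (edgeR).

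*Lgals9*, the TIM-3 ligand, was the member least changed by genotype. It lay at 330.3, 378, 414, 429 and 443 CPM in SPF WT mice and at 361, 376 and 416 CPM in SPF 5xFAD mice. In GF mice it lay at 384, 415, 462 and 514 CPM in WT and at 468, 478, 520.0, 524 and 619 CPM in 5xFAD mice. In ABX mice it lay at 387, 389.6, 405, 409.6 and 451 CPM in WT and at 324, 374, 482, 502, 521 and 568 CPM in 5xFAD mice. The genotypes overlapped in all 3 conditions, and the ABX 5xFAD mice spread below and above the ABX WT mice, with FAD_ABX_1151 lowest. The log2 fold change was -0.05 in SPF mice (95% confidence interval -0.33 to 0.22, adjusted p = 0.948), 0.23 in GF mice (-0.02 to 0.49, adjusted p = 0.223) and 0.18 in ABX mice (-0.05 to 0.41, adjusted p = 0.324, edgeR).

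In terms of separation, 2 of 5 members had genotypes without overlap in SPF mice (*Lgals3* and *Lgals3bp*), where 16.9% of all genes did. The count was 2 of 5 in GF mice (*Lgals1* and *Lgals3bp*), beside 14.8% of all genes, and 2 of 5 in ABX mice (*Lgals3* and *Lgals3bp*), beside 6.83%. Exact two-sided permutation tests of log2(CPM + 1) between pairs of groups gave an unadjusted p under 0.05 in 15 of 45 tests of the 5 genes. After Benjamini-Hochberg adjustment over the 45, 2 stayed under 0.05: *Lgals3* and *Lgals3bp* in ABX mice, both with the smallest p that 6 against 5 mice allow (exact p = 0.00216, adjusted p = 0.0487). With 3 against 5 mice the smallest exact p is 0.0179, which *Lgals3* and *Lgals3bp* reached in SPF mice (adjusted p = 0.0618 for each). *Lgals1* and *Lgals9* reached it in GF against SPF 5xFAD mice, with the same adjusted p.

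**Figure D4:**
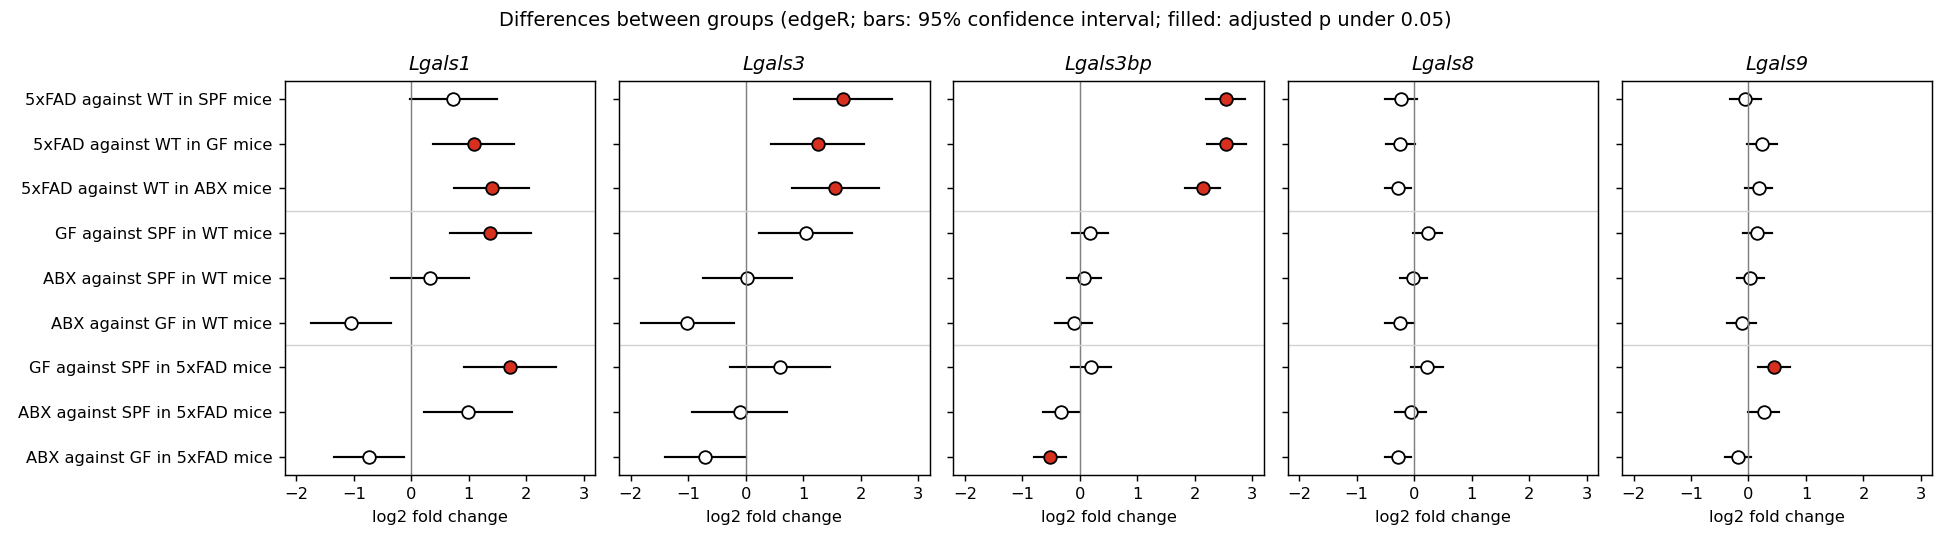
Log2 fold change of each gene in the 9 comparisons of pairs of groups (points) with its 95% confidence interval (bars), filled where the adjusted p-value of edgeR was under 0.05. *Lgals3bp* lies at 2.14 to 2.55 in the genotype comparisons and at -0.52 to 0.20 in the comparisons of conditions, and *Lgals1* is filled in both comparisons of GF with SPF mice.

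Next, GF and SPF mice of the same genotype were compared. *Lgals1* was higher in GF mice of both genotypes. In WT mice its log2 fold change was 1.37 ± 0.34 (SE), or 2.59-fold (adjusted p = 0.0362), and every GF WT mouse (3.85 to 6.63 CPM) lay above every SPF WT mouse (1.51 to 2.63 CPM). In 5xFAD mice it was 1.72 ± 0.39, or 3.30-fold (adjusted p = 0.00507), again without overlap (6.99 to 18.9 against 2.41 to 3.98 CPM, edgeR). Of the border macrophage markers 4 of 6 were called higher in GF than in SPF WT mice and 0 of 6 in 5xFAD mice. In WT mice 1 of 4 astrocyte markers was called lower, and in 5xFAD mice all 5 neutrophil markers tested and 2 of 7 microglia markers. The part of all these markers in the differences was not tested. The WT call was lost without any 1 of 6 mice (WT_SPF_912, WT_SPF_926, WT_SPF_936, WT_GF_229, WT_GF_230 or WT_GF_231, adjusted p between 0.0734 and 0.120), and the 5xFAD call without FAD_SPF_1146 (1.504, adjusted p = 0.0535, edgeR). *Lgals1* was the only 1 of 5 members called in WT mice, where 1.62% of all genes (248) were called, a background that rose to 721 genes with DESeq2, 1631 with voomWithQualityWeights, 1286 with only the groups compared and 659 without FAD_ABX_1151 and FAD_ABX_1482. It was also the only 1 without overlap, where 10.7% of all genes had none. In 5xFAD mice 2 of 5 members were called, beside 12.8% of all genes (1962, against 3872 with voomWithQualityWeights, which also called 2), and these 2 had no overlap, beside 19.6% of all genes.

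The second of them was *Lgals9*, whose log2 fold change in GF against SPF 5xFAD mice was 0.44 ± 0.14 (SE), or 1.36-fold (adjusted p = 0.0320, edgeR). The GF 5xFAD mice lay at 468 to 619 CPM and the SPF 5xFAD mice at 361 to 416 CPM. The call was lost with library size alone (0.34, adjusted p = 0.0731), without a filter on low counts (0.41, adjusted p = 0.0636) and without FAD_GF_182, FAD_GF_184, FAD_GF_185, FAD_SPF_1146 or FAD_SPF_1148 (adjusted p of edgeR between 0.0533 and 0.165). In WT mice the same difference was 0.15 ± 0.12 (adjusted p = 0.582), and the interaction of 0.29 was not called (adjusted p = 0.708, edgeR). *Lgals3* was 2.06-fold higher in GF than in SPF WT mice (1.04 ± 0.39, adjusted p = 0.158), a value carried by 3 of the 4 GF WT mice. Without WT_GF_199, the lowest of them, it was 1.36 with an adjusted p of 0.0466 (edgeR). In 5xFAD mice the difference was 0.60 ± 0.42 (adjusted p = 0.392, edgeR). *Lgals3bp* and *Lgals8* differed by at most 0.24 (log2) when GF mice of either genotype were set against SPF mice, with adjusted p-values of at least 0.313 (edgeR).

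Ranges of *Lgals1* by form of column name did not overlap within either genotype, and the share of all genes so separated was not counted. Among WT mice it lay at 3.85 to 6.63 CPM in the 4 GF libraries, which share the third form, and at 1.51 to 3.44 CPM in the other 10. Among 5xFAD mice it lay at 4.16 to 18.9 CPM in the 10 libraries of the third form, 5 of them from ABX mice, and at 2.41 to 3.98 CPM in the 4 of the second form, 1 of them from an ABX mouse. For *Lgals9* the 5xFAD ranges were 374 to 619 and 324 to 416 CPM. *Lgals3bp* did not follow the forms, with 499 to 1141 and 579 to 845 CPM. Whether the forms have a part in the differences of *Lgals1* and *Lgals9* was not tested.

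ABX mice were then compared with SPF and GF mice. Against SPF mice, 0 of 5 members were called in WT mice and 0 of 5 in 5xFAD mice, where 0.0% and again 0.0% of all genes were called by edgeR. At an unadjusted p under 0.05 the members numbered 0 and 1, with *Lgals1* in 5xFAD mice the one (0.99 ± 0.37, adjusted p = 0.635), and over all genes 687 and 1085. DESeq2 called 2 genes in WT and 8 in 5xFAD mice and voomWithQualityWeights 0 and 134, no member among them. For *Lgals3bp* the difference was 0.07 in WT mice (95% confidence interval -0.22 to 0.37) and -0.32 in 5xFAD mice (-0.65 to 0.00). The 6 ABX 5xFAD mice all lay below the 3 SPF 5xFAD mice for *Lgals3bp*, the only 1 of 5 members apart in that comparison, beside 2.39% of all genes, and 0 of 5 were apart in WT mice, beside 1.22%. Thus *Lgals3bp* was not distinguished from SPF mice by the test across all genes (adjusted p = 0.707, edgeR).

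Against GF mice, ABX mice had 0 of 5 members called in WT mice, beside 6.88% of all genes, and 1 of 5 in 5xFAD mice, beside 10.6%. In WT mice 3 members had an unadjusted p under 0.05, as did 3458 of the 15298 genes. DESeq2 and voomWithQualityWeights each called 1 member, among 1618 and 2025 genes. This was *Lgals1*, at -1.05 ± 0.34 on the log2 scale (adjusted p = 0.0587 in edgeR, 0.0298 in DESeq2 and 0.0321 in voomWithQualityWeights), the 1 of 5 members without overlap, beside 10.9% of all genes. In the same comparison 4 of 6 border macrophage markers were called lower and 1 of 7 microglia markers higher, and their part was not tested. *Lgals3* had a similar value with a wider error (-1.01 ± 0.40, adjusted p = 0.116, edgeR). In 5xFAD mice the member called was *Lgals3bp*, which was 0.698-fold in ABX relative to GF mice (-0.52 ± 0.14, adjusted p = 0.0158, edgeR). In that comparison 4 of 5 neutrophil, 3 of 7 microglia, 1 of 6 border macrophage and 1 of 4 astrocyte markers were called higher, and their part was not tested. The neutrophil markers summed to 144 CPM in FAD_ABX_1151 and to at most 0.285 CPM in the other mice compared. The ranges of *Lgals3bp* overlapped (499 to 796 against 609 to 1141 CPM), as did those of all 5 members, beside 2.82% of all genes that were apart. The difference was -0.48 (adjusted p = 0.0439) without FAD_ABX_1151, that is within 1 form of column names. It was -0.44 without FAD_GF_185 (adjusted p = 0.0569) and -0.48 with only the groups compared (adjusted p = 0.0899), and neither passed (edgeR). With only the groups compared the background fell from 1621 to 251 genes, of 13308 tested. *Lgals8* was -0.28 ± 0.11 in the same comparison (adjusted p = 0.0961) and *Lgals1* -0.74 ± 0.30 (adjusted p = 0.111). Without FAD_ABX_1482 *Lgals1* was called (-0.94, adjusted p = 0.0306), and without FAD_GF_181 it was -0.47 (adjusted p = 0.357, edgeR).

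Whether genotype and condition acted on the members together was tested with 3 interactions. Of the 5 members, 0 were called in each, beside 0.0% of all genes for GF against SPF mice, 0.0% for ABX against SPF mice and 1.76% for ABX against GF mice (edgeR). At an unadjusted p under 0.05 there were 0 members in each as well, and 0 were called by DESeq2 or voomWithQualityWeights. Over all genes, the interactions for GF against SPF, ABX against SPF and ABX against GF mice had 1304, 1032 and 2436 genes at an unadjusted p under 0.05. DESeq2 called 25, 1 and 576 genes, and voomWithQualityWeights 116, 14 and 281. The 95% confidence intervals were wide for the low genes. For *Lgals3* the interaction with GF against SPF mice ran from -1.61 to 0.73, and for *Lgals1* from -0.69 to 1.39, so that differences of more than 2-fold remain within them.

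Galectins act through partners, of which 3 lists were described. Of 21 glycoprotein counter-receptors and ligands, 19 were tested. In 5xFAD against WT mice, 5 were higher and 0 lower (SPF), 7 higher and 2 lower (GF), and 10 higher and 1 lower (ABX), with medians over the list of 0.13, 0.09 and 0.26 on the log2 scale. Over all genes tested, 3.73%, 9.43% and 9.45% were higher and 0.837%, 6.2% and 4.98% lower. *Anxa2*, which encodes a phospholipid-binding protein, rose the most in SPF mice (3.07 ± 0.33, from 1.17 to 9.97 CPM) and GF mice (3.03 ± 0.33, from 2.26 to 18.5 CPM), and rose in ABX mice (3.67 ± 0.32, from 0.991 to 12.3 CPM). *Cd44*, the hyaluronan receptor, was next in SPF mice (3.00 ± 0.73, adjusted p = 0.009999) and GF mice (2.95 ± 0.74, adjusted p = 0.00531) and lower down in ABX mice (2.31 ± 0.65, adjusted p = 0.0154, edgeR), at 0.947 to 1.26 CPM in the WT groups and 5.76 to 9.71 CPM in the 5xFAD groups. *Spn*, which encodes CD43, was called in ABX mice (adjusted p = 0.00515, edgeR) at 0 to 0.0659 CPM in WT and 0.289 to 2.28 CPM in 5xFAD mice, too few reads for a fold to be given. The TIM-3 gene *Havcr2* was not called in any comparison of genotypes (adjusted p = 0.0518 for the mean over the 3 conditions, edgeR), with group means of 416 to 488 CPM. In GF against SPF 5xFAD mice 4 of the 19 were higher and 4 lower, where 6.97% of all genes were higher and 5.86% lower.

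Of 14 enzymes that build or cap the N-glycan and core 2 branches which galectins bind, all 14 were tested. In 5xFAD against WT mice 1 was higher and 0 lower (SPF), 1 higher and 2 lower (GF), and 3 higher and 1 lower (ABX), with medians of -0.02, -0.14 and 0.02. Over all genes 3.73%, 9.43% and 9.45% were higher and 0.837%, 6.2% and 4.98% lower. In GF against SPF 5xFAD mice 1 was higher and 5 were lower, with a median over the list of -0.06, beside 6.97% of all genes higher and 5.86% lower. Among the 5 were *Man2a1*, the Golgi alpha-mannosidase II (-0.85 ± 0.22, adjusted p = 0.0130, from 22.8 to 12.7 CPM), and *Mgat4a*, a branching N-acetylglucosaminyltransferase (-0.79 ± 0.20, adjusted p = 0.0105, from 361 to 208 CPM, edgeR). *Mgat4a* was also lower in GF than in SPF WT mice (-0.79 ± 0.19, adjusted p = 0.0311, edgeR).

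Of 16 cytosolic partners of galectins in lysosomal damage and repair, all 16 were tested. In 5xFAD against WT mice 1 was higher and 1 lower (SPF), 4 higher and 3 lower (GF), and 1 higher and 1 lower (ABX). The medians over the list were -0.012, -0.0071 and -0.017. Over all genes 3.73%, 9.43% and 9.45% were higher and 0.837%, 6.2% and 4.98% lower. *Optn*, an autophagy receptor, was the one that rose in SPF mice (1.08 ± 0.27, adjusted p = 0.0149, from 5.54 to 11.7 CPM, edgeR). The largest difference among those called of the list in GF mice was that of *Trim16*, a ubiquitin ligase that acts with galectin-3, at -1.92 ± 0.55 (adjusted p = 0.0147, from 5.87 to 1.57 CPM, edgeR). In GF against SPF 5xFAD mice 0 of the 16 were higher and 2 lower, beside 6.97% and 5.86% of all genes. *Usp9x*, a deubiquitinase, had the largest change among those called in the 3 lists (-1.33 ± 0.34, adjusted p = 0.0112, from 81.5 to 32.5 CPM, edgeR).

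**Figure D5:**
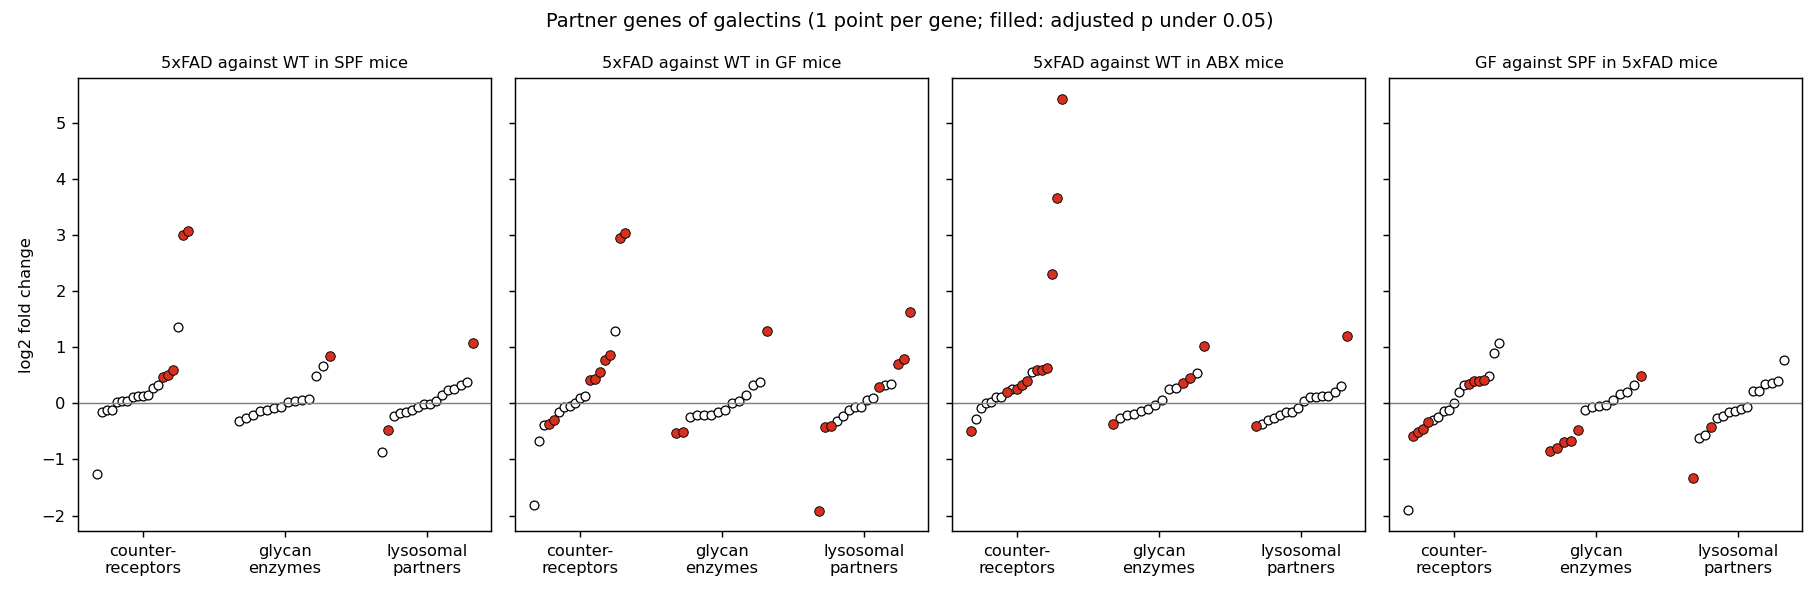
Log2 fold changes of the 19 counter-receptors, 14 glycan enzymes and 16 lysosomal partners tested, 1 point per gene, filled where the adjusted p-value was under 0.05 (edgeR). The counter-receptors *Anxa2* and *Cd44* stand above the rest in the genotype comparisons (2.31 to 3.67), and the highest point, *Spn* in ABX mice, rests on 0 to 0.0659 CPM in WT mice.

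The other galectin genes were low. Of 8 listed, 6 were in the table and 2 passed the filter on low counts. *Lgals12* and *Grifin* had 0 reads in all 28 libraries, *Lgals2* at most 3 and *Lgals7* at most 2 in a library, which is too shallow to compare groups. *Lgalsl*, which encodes a galectin-related protein, lay at 1.23 to 7.71 CPM and was not called in any comparison of pairs of groups. *Lgals4*, better known from the gut epithelium, lay at 5.31 to 6.89 CPM in GF WT and 0.748 to 4.58 CPM in GF 5xFAD mice, without overlap, a log2 fold change of -1.09 ± 0.32 (adjusted p = 0.0185, edgeR). It was higher in ABX than in GF 5xFAD mice (0.94 ± 0.30, adjusted p = 0.0394, edgeR). Reads of *Lgals4* could be shared with its close copy *Lgals6*, which is not a row of the table used here.

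Finally, the genes whose log2 CPM most resembled each member over the 28 libraries were listed among 8929 or 8930 genes of an average of at least 3 log2 CPM. These correlations are descriptions, since the libraries share groups and processing. *Lgals3bp* was closest to *H2-D1*, an MHC class I heavy chain (Pearson r = 0.983), *Ank*, a transporter of pyrophosphate (0.983), and *Cst7*, the protease inhibitor cystatin F (0.982). *Lgals1* was closest to *H2-DMa*, which loads peptides on MHC class II (0.920), *Plin3* (0.895) and *Napa* (0.895), and *Lgals3* to *Gsto1* (0.860), *Serpine2* (0.860) and *Rps19* (0.857). *Lgals9* was closest to *Ifi35*, an interferon-induced gene (0.852), *Tm2d2* (0.840) and *Rnh1* (0.837), and *Lgals8* to *Fam45a* (0.777), *Cenpt* (0.715) and *Klhdc8b* (0.708). Of the 3 genes given for *Lgals9*, only *Tm2d2* stayed among the 3 closest by Spearman's rho.

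When group means were subtracted, so that mice were compared only within their group, *H2-D1* stayed among the closest of *Lgals3bp* (0.750), after *Shisa5* (0.779) and before *Ddhd1* (0.703). *Lgals9* was then closest to *Ube2l6*, the enzyme that conjugates ISG15 (0.831), *Itpa* (0.796) and *Rnh1* (0.778). *Lgals1* was closest to *Ormdl2* (0.778), *2810006K23Rik* (0.738) and *Eef1d* (0.736), *Lgals3* to *Gtf2h5* (0.686), *Imp3* (0.685) and *Rer1* (0.684), and *Lgals8* to *Txnip* (0.704), *Gpr137b* (0.699) and *Zfp113* (0.681). The members resembled each other little within groups: the highest of the 10 pairwise values was 0.399, between *Lgals3bp* and *Lgals9*, and the lowest -0.36, between *Lgals3* and *Lgals8*.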

How the data were processed

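RNA of sorted hippocampal microglia from 28 mice was sequenced as single reads from a kit that does not mark strand. The submitters' processing notes name CASAVA 1.8.2, FastQC 0.11.8, STAR 2.7.2, featureCounts 1.6.2, edgeR 3.26.7 and limma 3.40.6, and the methods give GRCm38 and GENCODE M21. The deposited table holds raw counts, summed by the authors for each gene without normalization, so library size and composition have to be corrected before groups are compared. All per-sample columns were used, and 92 spike-in rows (at most 12 reads in a library) were left out.

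Counts were tested in R 4.3.3 with edgeR 4.0.16 (filterByExpr, minimum count 10, minimum total 15, TMM, 1 term per group, quasi-likelihood test, Benjamini-Hochberg over 15298 genes, threshold 0.05). Standard errors were taken from the log2 fold change and its F value. Log2 CPM used a prior count of 2. The scripts were tested on simulated data. Alternatives were RLE factors, library size alone, no filter, at least 10 counts in every library, DESeq2 1.42.0, limma 3.58.1 voomWithQualityWeights, only the groups compared, a threshold of 0.01, and leaving out FAD_ABX_1151 and FAD_ABX_1482 or each mouse in turn. Groups came from the titles. Members, gene lists and the omission of the pair were chosen with earlier results of these data known. Partner genes were named by rule: the 3 largest changes among those called in each genotype comparison and in GF against SPF 5xFAD mice, over the 3 lists together. *Havcr2*, *Lgals4* and the second comparison of *Mgat4a* were named beside them after their values were seen. The markers were *P2ry12*, *Tmem119*, *Cx3cr1*, *Sall1*, *Siglech*, *Olfml3* and *Csf1r* for microglia, *Mrc1*, *Cd163*, *Lyve1*, *Pf4*, *F13a1* and *Cbr2* for border-associated macrophages, *S100a8*, *S100a9*, *Ngp*, *Camp*, *Ltf* and *Retnlg* for neutrophils, *Ccr2*, *Ly6c2*, *Plac8*, *Vcan*, *Fn1* and *Ms4a4c* for monocytes, *Gfap*, *Aqp4*, *Aldoc*, *Slc1a3* and *Gja1* for astrocytes, and *Cldn5*, *Pecam1*, *Flt1* and *Ly6c1* for endothelial cells. Markers that failed the filter on low counts were not tested. A further item is not reported here.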

Additional observations from a re-analysis of the deposited data

Results flagged for a closer look

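Of the 25 sets of values of a member in a group of 4 to 6 mice, 1 held a mouse that stood apart from its group by Dixon's criterion, and chance alone gives about 1 in 20 such sets. *Lgals8* lay at 194.6 CPM in FAD_GF_201, against 131.5 to 143 CPM in the other 4 GF 5xFAD mice, a gap of 0.821 of the range of the group. Without this mouse *Lgals8* was lower in GF 5xFAD than in GF WT mice (-0.35 on the log2 scale, adjusted p = 0.0348), as it was without WT_GF_230 (-0.37, adjusted p = 0.0420), whereas without WT_GF_199 the difference was -0.11 (adjusted p = 0.657, edgeR). The same mouse had 609 CPM of *Lgals3bp*, the lowest of its group and above every WT mouse (at most 192 CPM). The 3 SPF 5xFAD mice are too few for this criterion.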

How the results depend on the processing

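Interactions were rerun only as counts of members called. Of the other values of 1 member in 1 comparison (pairs of groups and the averaged contrast) under another setting, 424 kept their direction and side of the threshold, 11 lost the call, 7 gained it and 3 reversed. With 1 mouse left out, 1357 kept both, 22 lost the call, 9 gained it and 12 reversed. The number of members called fell to 1 in SPF and to 1 in GF 5xFAD against WT mice, to 0 (WT) and 1 (5xFAD) in GF against SPF mice and to 0 in ABX against GF 5xFAD mice at an adjusted p under 0.01. In ABX against GF WT mice it rose from 0 to 1 with at least 10 counts in every library, DESeq2, voomWithQualityWeights, only the groups compared, or without FAD_ABX_1151 and FAD_ABX_1482. In GF against SPF 5xFAD mice it fell to 1 with library size alone or without a filter, and in ABX against GF 5xFAD mice to 0 with only the groups compared. With 1 mouse left out it ranged from 1 to 2 (SPF) and from 1 to 4 (GF) for genotype, and from 0 to 2 for each of GF against SPF WT, GF against SPF 5xFAD, ABX against GF WT and ABX against GF 5xFAD mice. The causes were not tested.

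The reversed values lay near 0 and none was called. In ABX against SPF WT mice *Lgals8* turned to 0.0016 with library size alone and 0.029 with voomWithQualityWeights, and ranged from -0.068 to 0.028 with 1 mouse left out. In ABX against SPF 5xFAD mice *Lgals3* turned to 0.12 with voomWithQualityWeights and ranged from -0.26 to 0.21. Over mice left out, *Lgals3* ranged from -0.18 to 0.17, *Lgals3bp* from -0.0069 to 0.15 and *Lgals9* from -0.022 to 0.076 in ABX against SPF WT mice, and *Lgals9* from -0.11 to 0.0030 in SPF 5xFAD against WT mice. The level of each member in each group moved by less than 1 SD with CPM on library totals. Without division by length 1 of 5 genes kept its place in the order of levels. Spearman's rho kept between 0 and 2 of the 3 genes closest to a member. No paired analysis was possible because the mouse numbers are not shared between groups.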
